A study of Mus musculus with 8 samples.

Results

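The Tweety family, Ttyh1, Ttyh2 and Ttyh3, was examined in embryonic mouse outflow tracts, the vessel through which blood leaves the developing heart. Its 3 genes stand among 36518 gene names on the array and carry 6 probes. They were found by the gene name of each probe, and the family was chosen on earlier values of these arrays, in which Ttyh1 lay apart in the groups. The values of Ttyh1 are therefore given as a description, with no test.

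The arrays compared rescued Raldh2-/- embryos, in 4 pools numbered 1, 2, 3 and 7 (knockout pools), with rescued wild type littermates, in 4 pools numbered 1, 2, 5 and 7 (wild type pools). The product of Raldh2, now named Aldh1a2, is the enzyme that turns retinaldehyde into retinoic acid in embryos. Dams of both groups ate food holding all-trans-retinoic acid at 0.1 mg/g between E7.5 and E8.5, for which both are called rescued, and the tracts were dissected at E10.5. Each pool held 4 tracts and was hybridised to 1 one-colour array with 50 ng of RNA of an integrity number over 8.0; litter and sex were not given. P-values set a group difference against the variation between pools, and the number of arrays limits the precision.

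Tweety proteins are membrane proteins with several transmembrane segments, named after a Drosophila gene. They were first reported as chloride channels of large conductance and were later linked to anion currents that follow cell swelling. In the mouse, Ttyh1 is known mainly from the brain, where it is found in neural progenitors and glia, and it has been reported to raise Notch signalling by acting on Rer1, which retains subunits of the gamma-secretase complex that cleaves Notch. Ttyh2 and Ttyh3 are found in a wider range of tissues.

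The 6 probes are shown because the genes are read only through them, and because the probes of 1 gene did not all give the same picture. Each has 60 bases. Capitals mark the hexamer AATAAA, the usual polyadenylation signal, or its reverse complement TTTATT. Positions are in mm9, as the array files give them.
Ttyh1 probe A_55_P1956448, chr7:4086862-4086921, plus strand: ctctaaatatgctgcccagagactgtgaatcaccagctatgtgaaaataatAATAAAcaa
Ttyh1 probe A_55_P2111508, chr7:4086343-4086402, plus strand: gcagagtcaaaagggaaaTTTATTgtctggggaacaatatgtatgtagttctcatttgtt
Ttyh1 probe A_55_P2111513, chr7:4087717-4087776, plus strand: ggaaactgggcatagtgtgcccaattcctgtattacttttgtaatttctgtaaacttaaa
Ttyh2 probe A_55_P1985768, chr11:114582192-114582251, plus strand: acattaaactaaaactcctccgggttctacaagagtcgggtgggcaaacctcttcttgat
Ttyh2 probe A_51_P110189, chr11:114573076-114573135, plus strand: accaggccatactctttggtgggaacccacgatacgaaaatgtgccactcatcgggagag
Ttyh3 probe A_52_P196105, chr5:141096597-141096656, minus strand: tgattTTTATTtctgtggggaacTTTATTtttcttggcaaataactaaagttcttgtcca

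The 3 Ttyh1 probes lie within 1434 bases of each other, and each has a GC content of 35%. The Ttyh2 probes start 9116 bases apart, with a GC content of 45% for A_55_P1985768 and 53.3% for A_51_P110189. The single Ttyh3 probe has 30%. The hexamer occurs in 3 of the 6 probes on 1 strand or the other, against 13.5% of all 55681 probes. As printed, only A_55_P1956448 holds AATAAA. A_55_P2111508 and A_52_P196105 hold only TTTATT and lie on the strand of their genes, so no polyadenylation signal is read from them. Which exons the probes lie in was not looked up, as no gene models of that build were used here.

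Each signal was divided by the 75th percentile of its own array and put on the log2 scale (the relative scale), so that 0 is the brightness at that percentile. The array of wild type pool 1 differed from the rest, with a median signal of 2023 where the other 7 had 40.0 to 83.0. On it 94.7% of spots were called well above background, compared with 53.3% to 63.2% elsewhere, and so were 13278 (87.5%) of the 15181 probes that were dim on every other array. Differences are therefore given over 8 arrays and over the 7 without that pool. All arrays shared 1 slide, with the knockout arrays in row 1 and the wild type arrays in row 2, so that genotype and row cannot be told apart.

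The targeted gene was checked first. Aldh1a2 read 2.02, 2.01, 1.87 and 0.059 in knockout pools 1, 2, 3 and 7, against 1.92, 3.21, 2.98 and 3.65 in wild type pools 1, 2, 5 and 7. The difference, knockout minus wild type, was -1.45 (SE 0.55) over 8 arrays, with an exact two-sided permutation p of 0.0857 and a limma adjusted p of 0.735. Without wild type pool 1 the groups did not overlap, as in 11.4% of all 23760 genes, and the difference was -1.79. The exact permutation p was 0.0286, the smallest that these arrays allow, and the limma adjusted p was 0.366. Wild type pool 1 was the only wild type pool below a knockout pool, so leaving it out made the groups separate. Whether the Aldh1a2 probe lies in the deleted part of the gene was not looked up. Markers of the tissue were looked at next. All 11 cardiomyocyte markers and all 10 outflow tract and second heart field markers passed the filter on dim probes. So did all 11 neuronal markers, all 10 epithelial markers and 24388 of 36518 gene names, so this does not identify the tissue. Actc1, the cardiac actin, read 8.5 to 8.82 in the knockout pools and 6.35 to 9.05 in the wild type pools.

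Ttyh1 was lower in the rescued knockout tracts by its brightest probe, A_55_P1956448, which stands for the gene. Its processed signal was 89.0, 84.8, 62.5 and 62.3 in knockout pools 1, 2, 3 and 7, against 1992, 418, 204 and 238 in wild type pools 1, 2, 5 and 7. Relative to the 75th percentile, the knockout pools read -3.55, -3.50, -4.18 and -3.82, against -1.08, -1.11, -2.19 and -1.47 in the wild type pools. All 4 knockout pools were below the lowest wild type pool, and the probe was well above background on all 8 arrays. In bulk tissue, fewer cells that express a gene and less RNA of it per cell cannot be told apart.

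The mean of Ttyh1 was -3.76 ± 0.31 in the knockout pools and -1.46 ± 0.52 in the wild type pools (SD, n = 4 each), which gave a difference of -2.30 (SE 0.33), or 4.93-fold. Without wild type pool 1 the wild type mean was -1.59 ± 0.55 (SD, n = 3) and the difference -2.17 (SE 0.28), or 4.51-fold. The gap between the groups was wider than the range inside either: the highest knockout pool read -3.50 and the lowest wild type pool -2.19. Among all genes ranked from the most negative difference, Ttyh1 was number 42 of 24388 over 8 arrays and number 19 of 23760 over 7.

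Such a pattern was not rare among all genes. Of 24388 genes, 376 (1.54%) had all knockout pools below all wild type pools, and 1338 (5.49%) were free of overlap in either direction. Over 7 arrays these shares were 1158 of 23760 (4.87%) and 2719 (11.4%). As Ttyh1 was chosen for this pattern, nothing is read from its place among them.

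**Figure D1:**
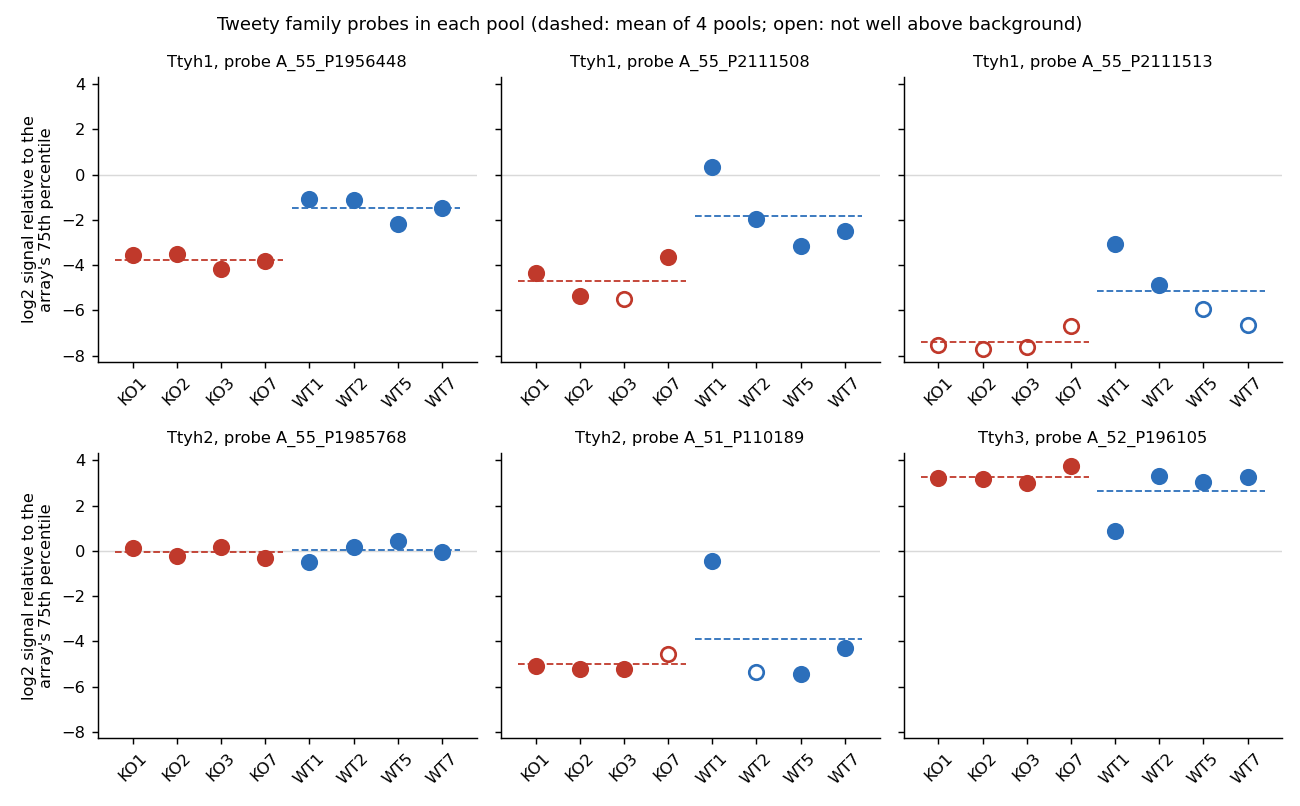
Signal on the relative log2 scale, where 0 is the array's 75th percentile (vertical axis), of each of the 6 Tweety probes in each pool (horizontal axis; KO, rescued Raldh2 knockout, red; WT, rescued wild type, blue); dashed lines are means of 4 pools and open circles were not well above background. Ttyh1 probe A_55_P1956448 lies between -4.18 and -3.50 in the knockout pools and between -2.19 and -1.08 in the wild type pools, while both Ttyh2 probes and the Ttyh3 probe overlap between groups.

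The gene has 2 further probes. A_55_P2111508 read lower in the knockout pools. It had processed signals of 51.3, 23.3, 25.1 and 71.3 in knockout pools 1, 2, 3 and 7, against 5336, 230, 104 and 117 in wild type pools 1, 2, 5 and 7. On the relative scale it read -4.34, -5.36, -5.50 and -3.63 in the knockout pools and 0.34, -1.97, -3.16 and -2.49 in the wild type pools. The groups did not overlap, and the probe was well above background in 3 of 4 knockout pools and in 4 of 4 wild type pools. The difference was -2.89 (SE 0.77), or 7.40-fold, over 8 arrays. Without wild type pool 1, which is far above the other 3 wild type pools here, it was -2.17 (SE 0.50), or 4.49-fold, close to the -2.17 of the brightest probe.

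The remaining probe, A_55_P2111513, was not well above background in any knockout pool. It was well above it in 2 of 4 wild type pools, pools 1 and 2, and so was left out of the tests. Its values were -7.53, -7.69, -7.60 and -6.71 in knockout pools 1, 2, 3 and 7, against -3.06, -4.87, -5.96 and -6.66 in wild type pools 1, 2, 5 and 7. The dimmest signal still called above background on each knockout array was then put in place of the probe's own. On that footing the wild type pools stood at 1.15-fold of the knockout pools, and at 0.71-fold without wild type pool 1. This gives no lower limit, as wild type pools 5 and 7 were themselves not above background. Probes not called can also lie above that signal, as A_55_P2111508 did in knockout pool 3 (-5.50 against -5.58). The order of pools below background carries no information.

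The 8-array separation of the brightest Ttyh1 probe depended on how wild type pool 1 was scaled. On that array the brightest Ttyh1 probe stood at percentile 50.2 of all spots, inside the knockout range of 46.3 to 54.9, while it stood at percentiles 70.1, 64.2 and 68.2 in wild type pools 2, 5 and 7. With array medians in place of the 75th percentile, the knockout pools read 0.39, 0.50, -0.18 and -0.41, against -0.02, 2.88, 1.91 and 2.57 in the wild type pools, so wild type pool 1 lay among the knockout pools. Quantile normalization gave 6.89, 6.97, 6.39 and 6.03 in the knockout pools and 6.43, 9.11, 8.21 and 8.81 in the wild type pools, with the same overlap. Over the other 7 arrays the groups stayed apart under all 4 scalings tried, for this probe and for A_55_P2111508. Over 8 arrays A_55_P2111508 also stayed apart under all 4. It stood at percentile 81.3 on wild type pool 1, against 38.7 to 48.8 in the knockout pools, so the probes differed on that array.

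**Figure D2:**
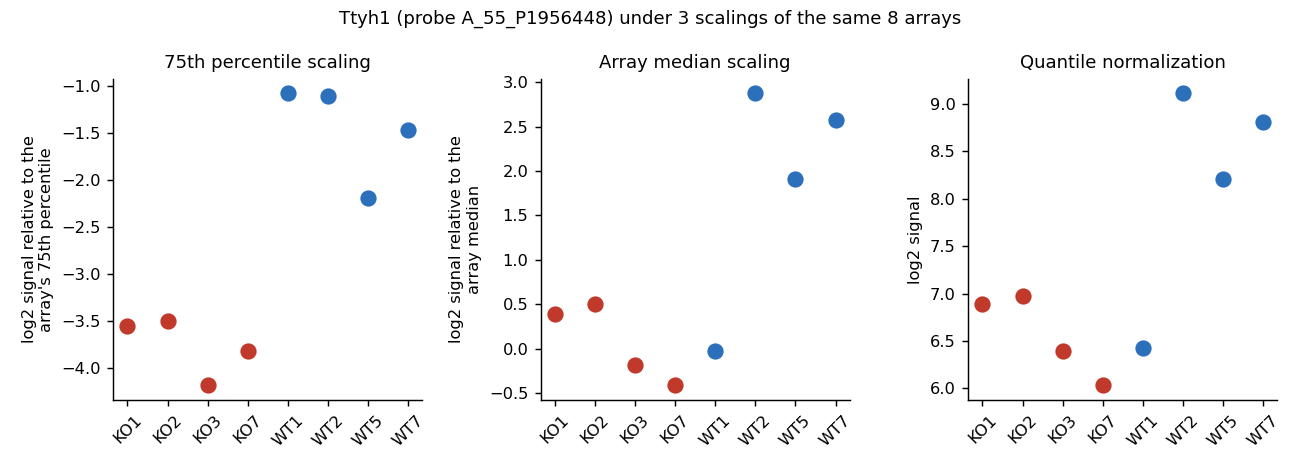
Log2 signal of Ttyh1 probe A_55_P1956448 in each pool (KO, rescued Raldh2 knockout, red; WT, rescued wild type, blue) after scaling to the 75th percentile, scaling to the array median and quantile normalization; each panel has its own vertical axis. Wild type pool 1 reads -1.08, above all knockout pools, in the first panel, and lies within the knockout range in the other panels, at -0.02 and 6.43.

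Ttyh2 did not pass the test. Probe A_55_P1985768, which stands for the gene, had processed signals of 1130, 830, 1276 and 703 in knockout pools 1, 2, 3 and 7, against 3024, 1008, 1273 and 629 in wild type pools 1, 2, 5 and 7. The relative values were 0.12, -0.21, 0.17 and -0.33 in the knockout pools and -0.48, 0.16, 0.45 and -0.07 in the wild type pools. The range of the knockout pools lay inside that of the wild type pools. Ttyh2 averaged -0.061 ± 0.24 in the knockout pools and 0.017 ± 0.39 in the wild type pools (SD, n = 4 each), and the difference was -0.078 (SE 0.29, 95% interval -0.74 to 0.59). The limma adjusted p was 0.888 and the exact two-sided permutation p 0.743.

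Over 7 arrays the Ttyh2 difference was -0.24 (SE 0.18, 95% interval -0.66 to 0.18), with a limma adjusted p of 0.634 and an exact permutation p of 0.257. These intervals are those of probe A_55_P1985768, and the data do not show that Ttyh2 was alike in both groups. Its other probe, A_51_P110189, was well above background in 3 of 4 pools of each group. It read -5.09, -5.20, -5.22 and -4.53 in knockout pools 1, 2, 3 and 7, against -0.47, -5.37, -5.45 and -4.29 in wild type pools 1, 2, 5 and 7. Its difference was -1.12 (SE 1.01, limma adjusted p over all probes 0.749) with wild type pool 1 and 0.026 (SE 0.31, adjusted p 0.982) without it.

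Ttyh3 did not pass the test either. Its probe had processed signals of 9550, 8702, 9062 and 11671 in knockout pools 1, 2, 3 and 7, against 7846, 8925, 7717 and 6372 in wild type pools 1, 2, 5 and 7. Relative values were 3.20, 3.18, 3.0 and 3.73 in the knockout pools and 0.90, 3.31, 3.05 and 3.27 in the wild type pools. All pools but wild type pool 1 lay between 3.0 and 3.73. Ttyh3 averaged 3.28 ± 0.31 in the knockout pools and 2.63 ± 1.16 in the wild type pools (SD, n = 4 each), a difference of 0.64 (SE 0.55, 95% interval -0.60 to 1.88, limma adjusted p 0.735, exact two-sided permutation p 0.457). Without wild type pool 1 it was 0.066 (SE 0.18, 95% interval -0.37 to 0.50, limma adjusted p 0.908, exact permutation p 0.857).

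Across all genes, limma called 0 of 24388 genes (0%) at an adjusted p under 0.05 over 8 arrays and 0 of 23760 (0%) over 7. At an unadjusted p under 0.05 it counted 434 (1.78%) over 8 arrays, 274 lower and 160 higher in the knockout pools. Over 7 arrays it counted 2521 (10.6%), 1035 lower and 1486 higher. With array weights, 8 genes passed the adjusted threshold over 8 arrays. Those weights ran from 0.017 for wild type pool 1 to 5.41 for knockout pool 1, so wild type pool 1 counted for little in that fit. The median difference over all genes was 0.13 over 8 arrays and 0.053 over 7, and 43.0% and 40.7% of genes were negative.

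The genes whose profile over the 8 pools was nearest to Ttyh1 were sought by the root mean square difference between centred log2 values, over 16204 genes with a symbol. Rgs18, a regulator of G protein signalling, was nearest at 0.403. Next came Adm2, a peptide hormone of the adrenomedullin family, at 0.430, Rln1, a relaxin hormone, at 0.437, Stc2, a secreted glycoprotein, at 0.451, and Rora, a nuclear receptor, at 0.50. Over 7 arrays and 15923 genes the nearest were Adm2 at 0.352, Stc2 at 0.383, Car12, a membrane carbonic anhydrase, at 0.399, Egln3, a prolyl hydroxylase, at 0.415, and Rln1 at 0.416. Adm2, Stc2 and Rln1 were among the 5 nearest both times.

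All 7 read lower in the knockout pools. Over 8 and 7 arrays the differences were -2.33 and -1.96 for Adm2, -2.48 and -2.14 for Stc2, and -2.16 and -1.84 for Rln1. They were -1.76 and -1.49 for Rgs18, -1.56 and -1.35 for Rora, -2.0 and -2.29 for Car12, and -1.98 and -2.16 for Egln3. In 6 of them, as in Ttyh1, wild type pool 5 was the lowest of the wild type pools, at -3.24 for Adm2, -1.45 for Stc2, -2.74 for Rln1, -3.84 for Rgs18, -1.23 for Rora and 0.46 for Egln3. In Car12 wild type pool 1 was the lowest, at 0.34. The relatives were far from Ttyh1: Ttyh2 ranked 3959 with a root mean square difference of 1.26, and Ttyh3 ranked 14695 with 1.74. Over 7 arrays they ranked 2860 with 1.08 and 6940 with 1.16. The measure favours any gene that is lower in the knockout pools by a like amount, and is a description over these pools.

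**Figure D3:**
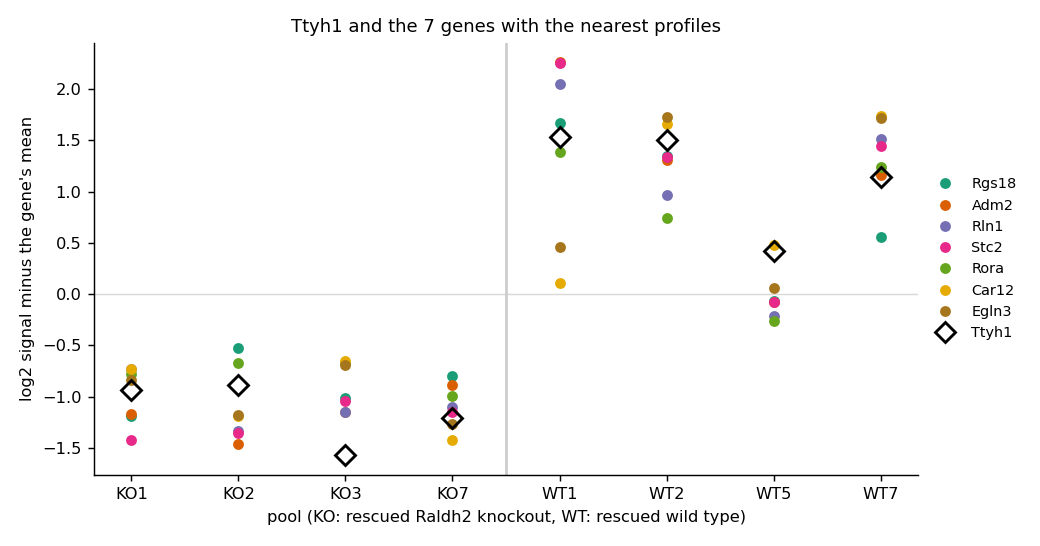
Log2 signal minus each gene's own mean over 8 pools (vertical axis) in each pool (horizontal axis; KO, rescued Raldh2 knockout; WT, rescued wild type) for Ttyh1 (diamonds) and the 7 genes nearest to it over 8 or 7 arrays (coloured points). All 8 genes lie below 0 in the 4 knockout pools, and Car12 and Egln3, nearest only over 7 arrays, lie farthest below Ttyh1 in wild type pool 1.

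The genes next to the members on their chromosomes were not lower or higher without overlap. Beside Ttyh1, Leng8 differed by 0.064 (SE 0.30) and Lair1, an inhibitory receptor of leukocytes, by -0.15 (SE 0.65) over 8 arrays, and by -0.11 and 0.54 over 7. Beside Ttyh2, the ribosomal protein gene Rpl38 differed by 0.45 (SE 0.51) and the dynein gene Dnaic2 by -0.55 (SE 0.73). Beside Ttyh3, Lfng, which modifies Notch receptors, differed by -0.59 (SE 0.59) and Iqce by 0.41 (SE 0.47). The groups overlapped in all 6 and none was called. Groups free of overlap were uncommon among all genes too, at 5.49% in either direction over 8 arrays. Without wild type pool 1, Rpl38 read -0.095 and Iqce -0.091, while Dnaic2 and Lfng no longer passed the filter on dim probes.

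RefSeq promoters of the 3 genes (GRCm38.p6, 250 bases before to 50 after the start) were searched on both strands for AGGTCA, a site bound by nuclear receptors such as those of retinoic acid. It occurred in 16.3% of 32851 promoters and in none of the 3, which says only that these letters are not in this window.

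Other anion channels were looked at beside the family. Of the volume-regulated anion channel subunits, all 5 were measured and 0 were called in either direction. Lrrc8a, the subunit that these channels need, differed by 0.66 (SE 0.56) over 8 arrays and by 0.042 (SE 0.12) over 7. The list's median was 0.33 over 8 arrays and -0.003 over 7. Of 10 anoctamins 7 were measured, with a median of 0.098 and -0.002. Ano1, a calcium-activated chloride channel, had all knockout pools above all wild type pools, at 3.38 to 4.17 against 1.17 to 3.33, and a difference of 1.21 (SE 0.48, limma adjusted p 0.735), or 0.75 (adjusted p 0.398) without wild type pool 1. Ano9 differed by 0.49 (SE 1.26), and by 1.51 (SE 1.08) over 7 arrays.

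Of 9 CLC chloride channels and transporters 8 were measured, with a median of 0.023 over 8 arrays and -0.21 over 7. Over 7 arrays 7 of 8 were negative, against 40.7% of all genes, and this count was not tested. Clcn6, an endosomal chloride transporter, was below the wild type pools in every knockout pool, at -2.43 to -2.08 against -1.92 to -1.13, with a difference of -0.67 (SE 0.27, limma adjusted p 0.735), or -0.71 (adjusted p 0.364) over 7 arrays. Of 10 other anion channels 7 were measured, with a median of -0.14 and 0.15. Among them Clic5, an intracellular channel protein tied to the actin cortex, read -1.77 to -0.77 in the knockout pools and -0.75 to 0.64 in the wild type pools, a difference of -1.06 (SE 0.38, limma adjusted p 0.735), or -1.27 (adjusted p 0.349) over 7 arrays. Clic4 differed by 0.65 (SE 0.48), and by 0.15 (SE 0.16) over 7 arrays. No gene of these 4 lists was called. Groups free of overlap in either direction, as for Ano1, Clcn6 and Clic5, made up 5.49% of all genes over 8 arrays. Ttyh1 had a larger difference than any gene of these lists over 8 arrays, but it was chosen because it separated the groups, so nothing is read from that.

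Notch genes were examined because Ttyh1 has been reported to act on that pathway. All genes of the 3 Notch lists were measured over 8 arrays, and 0 were called. The counts of signs below, which were not tested, stand beside 43.0% of all genes negative over 8 arrays. Of 9 receptors and ligands 3 were negative and 6 positive, with a median of 0.14 over 8 arrays and -0.12 over 7; the ligand Jag1 differed by 0.79 (SE 0.45) and the divergent ligand Dll3 by -0.72 (SE 0.55), but by 0.36 and -0.14 over 7 arrays. Of 9 genes of Notch cleavage 8 were positive, with a median of 0.38, and of 0.081 over 7 arrays. Rer1 itself read 4.04, 4.05, 4.08 and 4.16 in knockout pools 1, 2, 3 and 7, against 1.96, 3.78, 4.14 and 4.08 in wild type pools 1, 2, 5 and 7. Its groups overlapped, and its difference of 0.59 (SE 0.48, limma adjusted p 0.735) was 0.081 (SE 0.12, adjusted p 0.813) without wild type pool 1.

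Aph1b, a gamma-secretase subunit, had all knockout pools above all wild type pools, at 0.03 to 0.39 against -1.77 to -0.15, a difference of 0.91 (SE 0.39, limma adjusted p 0.735), or 0.53 (adjusted p 0.349) over 7 arrays. Of 10 genes of the Notch response 7 were positive, with a median of 0.35, and of 0.082 over 7 arrays. Its largest differences were 0.95 (SE 0.51) for Hey1 and 0.72 (SE 0.57) for Hes1, transcription factors that Notch switches on, which were 0.43 and 0.13 over 7 arrays. The groups overlapped in all 10. Groups free of overlap in either direction, as for Aph1b, made up 5.49% of all genes over 8 arrays.

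Cell types that could hold Ttyh1 were followed by marker lists, and their part in the Ttyh1 difference was not tested. Of 12 neural progenitor markers 10 were measured, with a median difference of 0.032 over 8 arrays and 0.10 over 7. Olig2 and Neurog2 were not above the filter. The list's mean, with the average of each gene on the 7 arrays other than wild type pool 1 set to 0, ran between -0.07 and 0.41 in the knockout pools and between -0.37 and 0.61 in the wild type pools. For that mean, wild type pool 1 was the highest of all pools and knockout pool 7 the highest of the rest. The progenitor surface protein Prom1 differed by 0.90 (SE 0.50), and by 0.39 (SE 0.21) over 7 arrays.

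Of 9 neural crest glia markers 7 were measured, with a median of -0.25 and 0.017, and Foxd3 was among those not above the filter. The list's mean ran from -0.03 to 0.05 in the knockout pools and from -0.29 to 1.05 in the wild type pools, the highest being wild type pool 1. The receptor Erbb3 differed by -1.0 (SE 0.89) and Gfra3 by -0.71 (SE 0.83), but by 0.017 and 0.15 without that pool.

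All 11 neuronal markers were measured, with a median of 0.40 over 8 arrays and 0.36 over 7. Stmn2, a neuronal tubulin regulator, had no overlap, at 0.78 to 1.09 in the knockout pools and -1.19 to 0.58 in the wild type pools, a difference of 0.96, or 0.58 over 7 arrays. The intermediate filament protein Prph differed by -1.05 (SE 0.86), but by -0.066 (SE 0.23) over 7 arrays. The list's mean ran from -0.26 to 0.59 in the knockout pools and from -0.61 to 1.16 in the wild type pools. None of the markers of these 3 neural lists was called. Groups free of overlap in either direction, as for Stmn2, made up 5.49% of all genes over 8 arrays.

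The 10 epithelial markers had a median of -0.043 over 8 arrays, and of 0.73 over 7, with 9 of them measured. The keratin Krt19 differed by -1.5 (SE 0.43, limma adjusted p 0.735). Over 7 arrays its groups did not overlap, as in 11.4% of all genes, with a difference of -1.87 (adjusted p 0.218). Krt19 was among the 8 genes called with array weights, a fit in which wild type pool 1 counted for little (weight 0.017). The endoderm factor Foxa2 differed by 0.80 (SE 1.13), and by 1.29 (SE 1.24) over 7 arrays. The list's mean was 0.24, 0.18, -1.35 and 1.49 in knockout pools 1, 2, 3 and 7, against 1.5, 1.43, -0.97 and -1.01 in wild type pools 1, 2, 5 and 7, and so varied more within groups than between them.

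The heart's own cell types gave 0 calls. Medians over 8 and 7 arrays were 0.33 and -0.18 for 11 cardiomyocyte markers, 0.28 and -0.058 for 8 endothelial markers, 0.55 and -0.028 for 9 cushion and mesenchyme markers, and 0.80 and 0.44 for 10 outflow tract and second heart field markers. The cardiac actin Actc1 differed by 0.52 and the troponin Tnnt2 by 0.43 over 8 arrays, but by -0.073 and -0.081 over 7. Over 7 arrays all 11 cardiomyocyte markers were negative, against 40.7% of all genes, and this count was not tested. The list's mean was -0.16, 0.03, 0.003 and -0.27 in knockout pools 1, 2, 3 and 7. It was -0.17, 0.12 and 0.45 in wild type pools 2, 5 and 7, so these groups overlapped. Over 8 and 7 arrays, the endothelial gene Nfatc1 differed by 0.87 and 0.33 and Tie1 by 0.82 and 0.35. In the same order, the mesenchyme gene Postn differed by 0.86 and 0.20 and Prrx1 by 0.71 and 0.62. Of the outflow tract and second heart field genes, Tbx1 differed by 1.33 and 0.94, Sema3c by 1.20 and 0.84, Tbx3 by 1.17 and 0.81, and Rgs5 by 0.97 and 0.57. Tie1, Sema3c, Tbx3 and Rgs5 had all knockout pools above all wild type pools. Over 8 arrays, groups free of overlap in either direction made up 5.49% of all 24388 genes. Wild type pool 1 had the lowest mean in each of these 4 lists, between -2.06 and -1.10, and so weighs in all of their 8-array values.

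**Figure D4:**
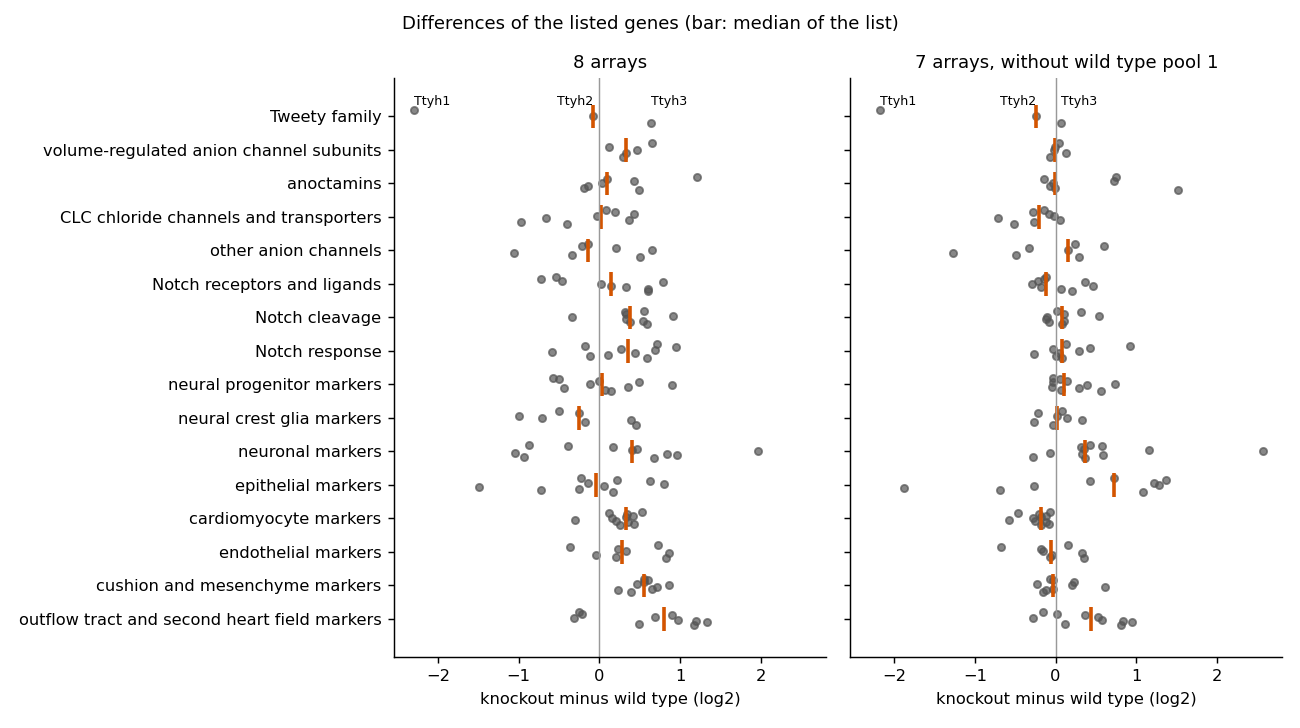
Difference, knockout minus wild type, on the log2 scale (horizontal axis) of each measured gene in each list (rows), over 8 arrays (left) and over 7 without wild type pool 1 (right); points are genes and vertical bars the list's median. Ttyh1, which was chosen because it separated the groups, lies at -2.30 and -2.17, left of every other gene shown. Ttyh2 and Ttyh3 lie among the other channels.

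The size of the family's differences under each processing choice is drawn for all 3 genes. Ttyh1 stayed negative in all 19 alternatives, between -2.59 and -1.53. As Ttyh1 was chosen because it separated the groups, this count does not support its difference. Ttyh3 stayed positive, between 0.017 and 1.18, but was -0.019 relative to the median of all genes with array weights. Ttyh2 changed sign in 4 of 19 and ran between -0.60 and 0.46, and so has no settled direction.

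**Figure D5:**
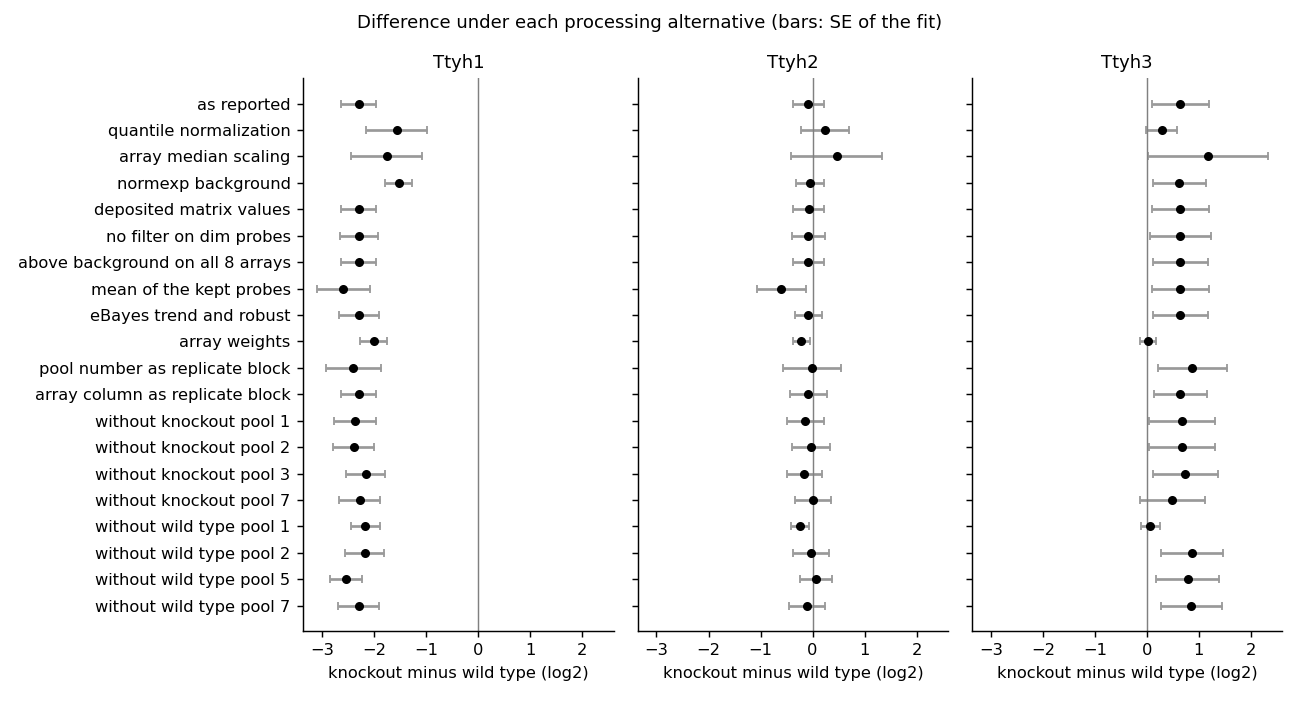
Difference, knockout minus wild type, on the log2 scale (horizontal axis) of Ttyh1, Ttyh2 and Ttyh3 as reported and under each of 19 alternatives (rows); points are estimates and bars the SE of the fit. Ttyh1 runs between -2.59 and -1.53, Ttyh2 lies on both sides of 0, and Ttyh3 shrinks to 0.066 without wild type pool 1.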

How the data were processed

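The deposited values are spot intensities of 8 one-colour Agilent arrays on a linear scale, with no scaling across arrays. Per the file headers, the authors used Agilent Feature Extraction, with the processed signal background-subtracted. A deposited matrix held the same intensity values (largest difference 0.496%). Control spots were left out, and the remaining 59305 spots, less those marked as outliers, were averaged per probe (55681 probes). Log2 values minus the log2 of each array's 75th percentile over these spots were used. A probe had to be well above background on 3 or more arrays of a group (33404 probes; 32384 over 7 arrays), and the brightest such probe by its mean stood for its gene; 26056 probes were named through their accession. Groups were compared with limma 3.58.1 in R 4.3.3 (lmFit, eBayes, two-sided, Benjamini-Hochberg over all genes, threshold 0.05), and single genes with exact permutation tests. The fit was tested on simulated data.

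The family, the gene lists (related anion channels, Notch genes and cell type markers) and the alternatives were chosen with earlier results of these data known. Named genes are the members, Aldh1a2, in each list the 2 genes with the largest absolute difference and up to 4 without overlap over 8 arrays, the 5 profiles nearest to Ttyh1 over 8 and over 7 arrays, and the nearest measured gene on each side of a member in RefSeq (GRCm38.p6). Rer1 falls under that rule; a few genes under it are not reported here. Alternatives were the scaling, background, filter, probe summary, fit, weights, blocks, deposited matrix and leaving out each pool.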

Additional observations from a re-analysis of the deposited data

Results flagged for a closer look

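In 54 checks of a group of 4 pools, 11 had a pool far from the other 3, by a criterion that chance meets in about 1 of 20 groups (2.7 of 54). Wild type pool 1 made 7 of them. Its array's median signal was 2020, against 40.0 to 56.9 in the other 3 wild type pools, and its 75th percentile 4210, against 659 to 931. Its median correlation with the other arrays was 0.682, against 0.979 to 0.985. Ttyh3 read 0.898 there, against 3.05 to 3.31. List means were -1.27 for Notch cleavage, against -0.17 to 0.005, -1.50 for endothelial markers, against -0.044 to 0.14, and -1.44 for volume-regulated anion channel subunits, against -0.098 to 0.099.

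Knockout pool 7 made the others. Ttyh1 probe A_55_P2111513 read -6.71 there, against -7.69 to -7.53 in the other 3 knockout pools, in all of which it was dim. Aldh1a2 read 0.0591, against 1.87 to 2.02, the mean of CLC chloride channels and transporters was 0.0603, against -0.17 to -0.15, and the array's median correlation was 0.967, against 0.984 in each of the other 3. The causes were not tested.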

How the results depend on the processing

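Of 19 alternatives, Ttyh1 was negative in 19, and 16 moved it by less than the spread between pools. Its groups did not overlap, so leaving out 1 pool could not reverse its sign. Changes of the filter or of the eBayes setting, and array column as a block, left its estimate at -2.3. These counts therefore do not support the difference. Ttyh1 was -1.57 with quantile normalization, -1.76 with array medians and -1.53 with normexp background, and -2.54 to -2.16 with 1 pool left out. Array medians moved the median of all genes to 0.67, against 0.13 as reported, and relative to the median of all genes Ttyh2 ran from -0.66 to 0.23. Ttyh2 turned positive with quantile normalization (0.24), array medians (0.462), without knockout pool 7 (0.00995) and without wild type pool 5 (0.0666), and ran from -0.243 to 0.0666 with 1 pool left out; its limma adjusted p was 0.620 to 0.994. Relative to the same median Ttyh3 ran from -0.019 to 0.95. Ttyh3 itself ran from 0.0656 to 0.869 with 1 pool left out, the lowest without wild type pool 1, with a limma adjusted p of 0.571 to 0.975 in all alternatives. Genes past the threshold numbered 8 with array weights and 0 in the other alternatives, 0 to 0 with 1 pool left out. Causes were not tested. Pool number as a replicate block gave -2.40 for Ttyh1, -0.0104 for Ttyh2 and 0.876 for Ttyh3, with 0 genes called. The numbers were not taken as pairs, as the labels do not say that they pair pools. Deviations of same-numbered pools correlated at -0.151, 0.325 and -0.406 for pools 1, 2 and 7. Wild type pool 1 enters the mean from which all wild type deviations were taken, so these values can neither show nor exclude pairing. Array column as a block changed no call.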
